A study of Mus musculus with 12 samples.

Results

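Syk, Lyn, Btk, Blnk, Plcg2, Pik3ap1, Prkcb, Bcl10 and Malt1 carry the signal of the B cell receptor from the membrane to NF-kB, and their messenger RNA was measured in splenic B cells of mice that model activated B cell-like diffuse large B cell lymphoma. The 9 genes were taken by symbol from the 50686 genes of each count table, and all 9 were among the 17754 genes tested. In the receptor pathway, the Src-family kinase Lyn phosphorylates the signalling motifs of the receptor chains, Syk docks on them and phosphorylates the adaptor Blnk, and Blnk brings together the Tec-family kinase Btk and its substrate Plcg2. Plcg2 makes the second messengers that release calcium and activate Prkcb, and signalling through Prkcb leads to the assembly of the CBM complex, which holds Bcl10 and Malt1 and turns on IKK2 and NF-kB. Pik3ap1, also called BCAP, links the receptor to phosphoinositide 3-kinase.

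The 12 libraries came from the spleens of 3 YC, 3 BIC and 6 pBIC mice, one library per mouse as the study's design counts them. YC mice, the normal controls, had the genotype YFPstopF/+ Cg1Cre/+ and gave sorted B220+YFP+ cells. BIC mice were Blimp1F/F IKK2castopF/stopF Cg1Cre/+ and gave B220+GFP+ cells, so that Cre removed Blimp1 (Prdm1), the master regulator of plasma cell differentiation, and switched on a constitutively active IKK2. pBIC mice carried the same alleles and p53F/F in addition, and their cells were also sorted as B220+GFP+. All groups share Cg1Cre/+, a Cre driven by transcription of the IgG1 constant region gene and so limited mostly to activated B cells, so the YC cells too are B cells that had switched the reporter on. By the labels, BIC differs from YC in the Blimp1 and IKK2 alleles and in the reporter, and pBIC from BIC in the p53 allele; sex-linked transcripts also differ, as given below. The labels used here give no age for the mice. IKK2 lies below the CBM complex, so the IKK2 allele of BIC and pBIC enters the pathway downstream of the 9 genes. This placement holds for IKK2 alone and not for the Blimp1 or p53 alleles.

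Each library held between 33127283 and 47067627 counts in genes, and every one of the 9 genes had at least 1946 counts in every library, so counting error is small beside the spread between mice. Levels are given as CPM, a gene's share of the counts of its library in the usual unit, with libraries scaled by TMM. The p53 and IKK2 alleles were visible in the RNA. Trp53 was at 136.7 to 147.1 CPM in YC and 72.06 to 208.5 CPM in BIC, against 16.22 to 32.0 CPM in pBIC. Ikbkb was at 217.4 to 249.5 CPM in YC, against 380.8 to 538.0 CPM in BIC and 452.7 to 510.2 in pBIC. Prdm1 was at 18.14 to 19.98 CPM in YC, with 5.327 to 41.08 in BIC and 0.7178 to 21.27 in pBIC. These ranges overlap, so the Blimp1 allele was not visible in the level of its gene. Xist, which is expressed from the inactive X chromosome of females, stood at 1680 to 1828 CPM in BIC and at 2051, 2633 and 1491 CPM in pBIC 2, 4 and 5, and at 5.133 CPM or less in all YC libraries and in pBIC 1, 3 and 6. The Y-linked gene Ddx3y stood at 174.6 to 229.4 CPM in YC, at most at 0.1635 CPM in BIC, at 93.67 and 107.8 CPM in pBIC 3 and 6 and at 2.601 CPM or less in the other pBIC libraries, pBIC 1 included. The labels give no sex, but by these genes sex and group cannot be told apart between YC and BIC, and pBIC is mixed. The summed level of 8 B cell markers was 8890 to 10490 CPM in YC and 9133 to 9715 CPM in BIC, but 2542 to 7514 in pBIC, with 4 of the 8 markers lower in pBIC than in YC and 4 lower than in BIC by the test. In sorted bulk cells, fewer cells of a type and less RNA of that type per cell cannot be told apart. Neutrophil markers summed to 926.1, 1532 and 65.18 CPM in the 3 BIC libraries, to 281.7, 10.29 and 3.043 CPM in the YC libraries and to between 6.156 and 81.51 CPM in pBIC, with 12 of 13 lower in pBIC than in BIC. Macrophage and monocyte markers summed to 53.24 to 100.5 CPM in YC, to 197.7 to 320.1 in BIC and to 20.62 to 364.1 in pBIC. Among them, Vsig4 was at 0 in all libraries. Of the 13 tested, 2 were higher and 1 lower in BIC than in YC, and 1 was lower in pBIC than in YC. Adgre1 went against the BIC sum, at 25.24 to 28.37 CPM in YC, 3.324 to 4.097 in BIC and 0.2129 to 2.013 in pBIC. T cell markers summed to 22.75 to 41.9 CPM in YC, 88.39 to 145.8 CPM in BIC and 15.32 to 64.89 CPM in pBIC. Of these 11, 1 was higher in BIC than in YC by the test. Cd3g alone held 11.99 to 86.97 CPM in BIC, against 1.859 to 3.4 in YC.

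Promoter sequence was searched for short motifs of factors active in B cells. RefSeq promoters (GRCm38.p6) were at hand for 7 of the 9 genes, Syk with 2 of them, and the 250 bases before each start were searched on both strands. The octamer ATGCAAAT, a motif bound by Oct factors and long known from immunoglobulin promoters, was found in 2 of these genes, Prkcb and Blnk, and in 1.60% of 32851 promoters. Both sites are shown with the octamer in capitals, because these 2 genes hold the rarest of the motifs that were found. In both genes, all 150 bases before the RefSeq start lie within exons of the same gene in the GENCODE annotation. By that annotation the 2 sites are inside the genes and not upstream of them. In the Blnk site it reads as the reverse complement on the gene's own strand.

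Prkcb (chr7:122289044-122289073, plus strand): gcctgggtttcATGCAAATgagggaggcgg

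Blnk (chr19:40994333-40994362, minus strand): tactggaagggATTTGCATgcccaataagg

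GAGGAA, a core bound by ETS factors such as PU.1, was found in the second Syk promoter and in Pik3ap1, against 23.3% of all promoters. An NF-kB type motif (1.21% of all promoters), an EBF1 type motif (0.779%) and TGGAAA (NFAT type, 18.6%) were in none of the 8 promoter windows. None of these motifs overlaps another in the matches found. The 150 bases before the starts of Plcg2 and Pik3ap1 are shown because these 2 genes kept their lower level in pBIC than in YC under every setting run; GAGGAA is in capitals, and Plcg2 holds none of the motifs.

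Plcg2 (chr8:117498125-117498274, plus strand): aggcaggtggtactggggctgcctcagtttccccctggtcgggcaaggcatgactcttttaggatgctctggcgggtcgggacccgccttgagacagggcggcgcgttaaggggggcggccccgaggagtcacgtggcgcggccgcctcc

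Pik3ap1 (chr19:41385103-41385252, minus strand): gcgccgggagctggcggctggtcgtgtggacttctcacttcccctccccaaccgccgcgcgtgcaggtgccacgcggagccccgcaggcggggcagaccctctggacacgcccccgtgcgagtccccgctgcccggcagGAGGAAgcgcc

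The 9 genes did not move as a block. In pBIC, Pik3ap1, Plcg2, Blnk, Syk and Lyn were lower than in YC, and Syk, Lyn and Bcl10 were lower than in BIC. In BIC, Plcg2 alone passed the test against YC, and it was lower there. None of the 9 was called higher in any comparison. The plot of levels by library shows different profiles. Syk, Lyn and Bcl10 had their highest group mean in BIC and their lowest in pBIC. Plcg2 and Pik3ap1 were low in both models, Blnk was low mainly in pBIC, and Btk, Malt1 and Prkcb passed no test.

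**Figure D1:**
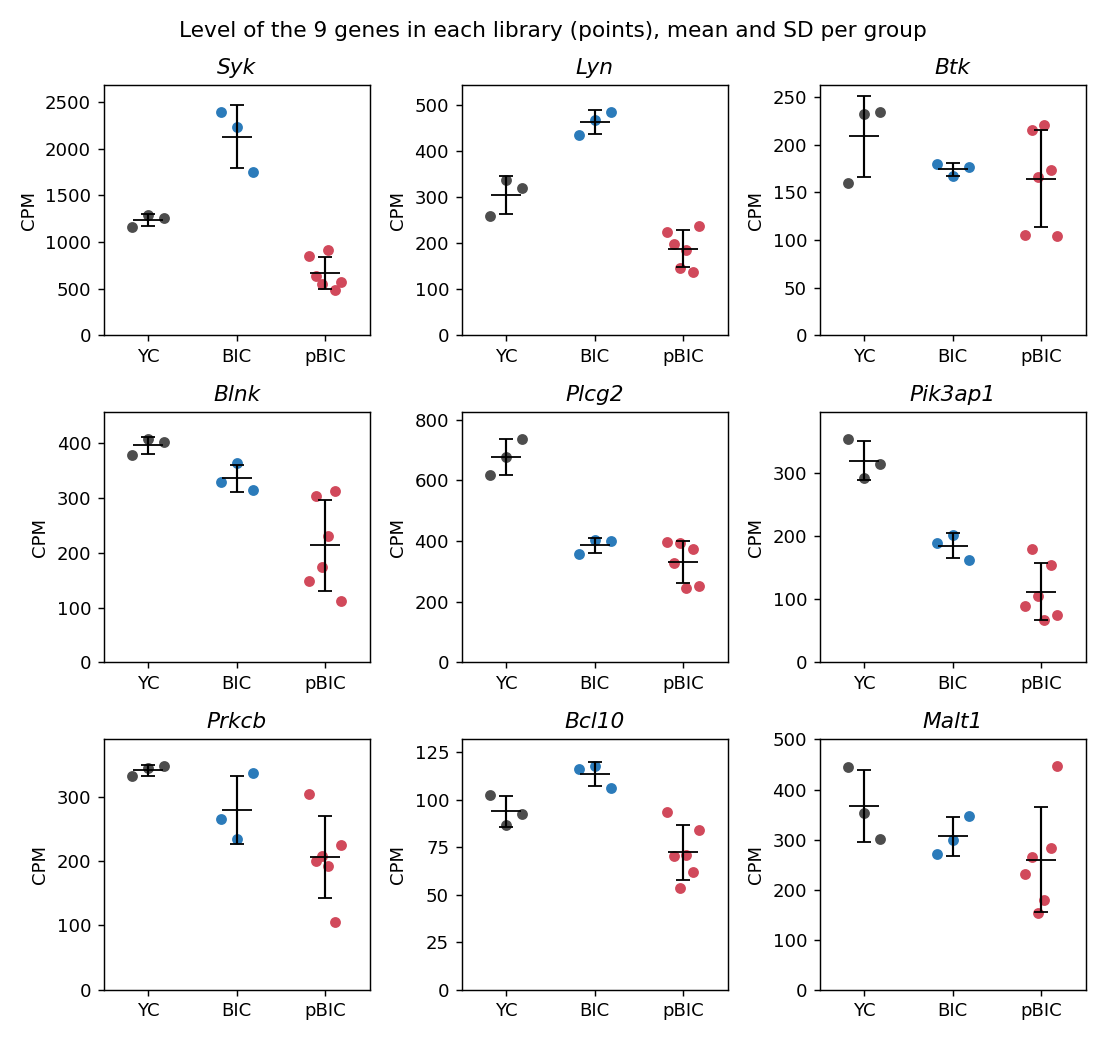
Level of each of the 9 genes in CPM (vertical axis, starting at 0) in the 12 libraries, grouped as YC, BIC and pBIC; points are libraries, the long bar is the group mean and the whiskers are 1 SD. All 3 BIC points of Syk and Lyn lie above every YC point and all 6 pBIC points lie below every YC point, whereas the groups overlap for Btk and Malt1.

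The apical kinase Syk, the most abundant of the 9 by counts, had levels of 1161, 1288 and 1257 CPM in YC, 2395, 2237 and 1754 CPM in BIC, and 484.2 to 911.5 CPM in pBIC with a median of 604.4 CPM. Every BIC library was above, and every pBIC library below, all 3 YC libraries. Syk fell 3.19-fold from BIC to pBIC (log2 fold change -1.67 ± 0.20 SE, adjusted p = 0.000798), and this call held under all 20 alternative settings (adjusted p at most 0.00671). Syk was also lower in pBIC than in YC (log2 fold change -0.89 ± 0.21, adjusted p = 0.00998), a call that ended without YC 2 (adjusted p = 0.0507; range over the alternatives 0.00178 to 0.0507). In BIC against YC the log2 fold change was 0.79 ± 0.25 and did not pass the test (adjusted p = 0.0689), although it did so without pBIC 4 (0.0398), with DESeq2 (0.0454) and in 3 further settings, over a range of 0.00940 to 0.263.

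Lyn, the Src-family kinase that starts the signal and also phosphorylates inhibitory receptors, followed the same order. It stood at 258.4, 337.1 and 320.0 CPM in YC, at 434.5, 468.8 and 486.0 CPM in BIC, and at 138.0 to 238.1 CPM in pBIC with a median of 192.2 CPM. No library of any group overlapped with another group. Lyn fell 2.46-fold from BIC to pBIC (log2 fold change -1.30 ± 0.18, adjusted p = 0.00133; at most 0.0128 under the 20 alternatives). From YC to pBIC it fell by 0.70 ± 0.19 on the log2 scale (adjusted p = 0.0190), and this call ended without YC 2 (0.0996), without YC 3 (0.0715), with a term for Xist and in the fit with a replicate block (0.0604). The log2 fold change of BIC against YC was 0.60 ± 0.22 (adjusted p = 0.108), and it passed the test only when the 2 groups were fitted alone (0.0136; range over the alternatives 0.0136 to 0.299).

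Granulocytes and macrophages also express Syk and Lyn, and although the cells were sorted for B220 and the reporter, markers of these cells were detected. BIC 3, with the lowest neutrophil marker sum of the BIC libraries at 65.18 CPM, had the lowest Syk of them at 1754 CPM and the highest Lyn at 486.0 CPM, each above every YC library. Its macrophage and monocyte marker sum, 197.7 CPM, was also the lowest of the 3 BIC libraries but above the YC maximum of 100.5 CPM. The part of other cell types in the BIC level of these kinases was not tested.

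Btk, the Tec-family kinase downstream of Syk and the target of ibrutinib, passed no test. Its level was 159.9, 231.9 and 234.6 CPM in YC, 179.5, 166.8 and 176.5 CPM in BIC, and between 104.6 and 220.7 CPM in pBIC with a median of 169.6 CPM. The pBIC libraries reach from below every other library to within the YC range. The log2 fold changes were -0.26 ± 0.29 from YC to BIC (adjusted p = 0.620), -0.35 ± 0.25 from YC to pBIC (0.343) and -0.09 ± 0.25 from BIC to pBIC (0.843). The last was 0.01 without pBIC 1 and 0.23 with a term for Xist. Btk is an X-linked gene, and the 3 pBIC libraries with Xist held it at 173.3 to 220.7 CPM, above the 3 without it at 104.6 to 165.8 CPM. With a term for Xist in the fit, Btk was lower in BIC than in YC (log2 fold change -1.08, adjusted p = 0.0410) and lower in pBIC than in YC (-0.85, adjusted p = 0.0144). Btk passed in no other of the 20 settings, and over all of them the adjusted p ran from 0.0410 to 0.851 and from 0.0144 to 0.619. Xist separates every YC from every BIC library, so this term cannot part sex from group between them. For any gene, its BIC against YC value is therefore not a result adjusted for sex.

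Blnk, the adaptor that holds Btk and Plcg2 together, was lower in pBIC than in YC. It was at 379.1, 408.0 and 402.2 CPM in YC, at 329.4, 363.7 and 315.6 CPM in BIC, and between 112.2 and 312.8 CPM in pBIC with a median of 202.4 CPM. No 2 groups overlapped, but pBIC ranged widely, and the 3 pBIC libraries with Xist (231.3 to 312.8 CPM) again lay above the 3 without it (112.2 to 173.5 CPM). The log2 fold change of pBIC against YC was -0.89 ± 0.28 (adjusted p = 0.0384). That call ended without any 1 of the 3 YC libraries (up to 0.120), without any 1 of the 3 BIC libraries (up to 0.0608), without pBIC 1 (0.0557), without pBIC 3 (0.0668) and with only the 2 groups in the fit (0.0756), over a range of 0.00235 to 0.120. The log2 fold changes of BIC against YC (-0.24 ± 0.33, adjusted p = 0.697) and of pBIC against BIC (-0.65 ± 0.28, adjusted p = 0.120) did not pass. With the Xist term the first was -1.20 with an adjusted p of 0.0451, within a range over the alternatives of 0.0451 to 0.862. The limit of this term given for Btk holds here too.

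Pik3ap1, the adaptor to phosphoinositide 3-kinase, showed the largest fall of the 9 from YC to pBIC. It stood at 354.1, 292.0 and 313.6 CPM in YC, at 189.5, 201.6 and 162.9 CPM in BIC, and between 67.46 and 179.2 CPM in pBIC with a median of 97.5 CPM. All libraries of both models were below all YC libraries, and 1 pBIC library, pBIC 2 at 179.2 CPM, fell within the BIC range. The log2 fold change of pBIC against YC was -1.51 ± 0.28 (adjusted p = 0.00291), and the call held under all 20 alternatives (at most 0.0167). The value for BIC against YC was -0.79 ± 0.33 (adjusted p = 0.156), which passed with the 2 groups fitted alone (0.00736; range 0.00736 to 0.359). The value for pBIC against BIC was -0.72 ± 0.28 (adjusted p = 0.0886), which passed without pBIC 2 (0.0301; range 0.0301 to 0.233).

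Plcg2, the phospholipase that makes the second messengers, was lower in both models than in YC. Its levels were 618.7, 676.0 and 736.4 CPM in YC, 357.7, 402.0 and 400.1 CPM in BIC, and 244.3 to 396.4 CPM in pBIC with a median of 351.7 CPM. Every library of either model was below every YC library, while BIC and pBIC overlapped. It fell by 0.81 ± 0.21 on the log2 scale in BIC (adjusted p = 0.0358) and by 1.03 ± 0.18 in pBIC (adjusted p = 0.00217), and the difference between the models did not pass the test (log2 fold change -0.22 ± 0.18, adjusted p = 0.414). The pBIC call held under all 20 alternatives (at most 0.0170). The BIC call ended without any 1 of the 3 YC libraries (0.0698 to 0.150), without any 1 of the 3 BIC libraries (0.101 to 0.130), without pBIC 2 (0.0548), with no filter on low counts (0.0658) and with the Xist term (0.194), within a range of 0.00384 to 0.194 and of -0.87 to -0.70 in log2 fold change.

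Prkcb, the protein kinase C of the pathway, was at 331.7, 345.2 and 347.8 CPM in YC, at 264.8, 234.7 and 337.3 CPM in BIC, and between 104.9 and 303.9 CPM in pBIC with a median of 204.0 CPM. The pBIC libraries did not overlap with YC. The log2 fold change of pBIC against YC, -0.73 ± 0.25, did not pass the test (adjusted p = 0.0537). It passed with DESeq2 (0.0412), with RLE factors (0.0419), with total counts only (0.0446), without pBIC 1 (0.0161) and without pBIC 5 (0.0384), and the range over the alternatives was 0.0161 to 0.256. The 3 pBIC libraries with Xist lay between 104.9 and 200.2 CPM, and the 3 without it between 207.9 and 303.9 CPM. BIC against YC gave -0.29 ± 0.29 (adjusted p = 0.575) and pBIC against BIC gave -0.44 ± 0.25 (adjusted p = 0.237).

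Of the CBM complex, Bcl10, the linker that polymerises into filaments, had the lowest group mean of the 9 in every group. It stood at 102.8, 86.67 and 92.8 CPM in YC, at 116.5, 117.8 and 106.3 CPM in BIC, and between 53.72 and 93.65 CPM in pBIC with a median of 70.64 CPM. BIC lay above YC and above pBIC without overlap, and pBIC reached into the YC range. Bcl10 fell by 0.65 ± 0.17 on the log2 scale from BIC to pBIC (adjusted p = 0.0191), a call that ended without BIC 1 (0.0777), without BIC 2 (0.0664) and with libraries 1 to 3 alone (0.0586), over a range of 0.00643 to 0.0777. The log2 fold changes against YC were 0.27 ± 0.20 for BIC (adjusted p = 0.420) and -0.38 ± 0.17 for pBIC (adjusted p = 0.126), and the latter passed without pBIC 1 (0.0460; range 0.0460 to 0.432).

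Malt1, the paracaspase and scaffold of the complex, passed no test. Its levels were 444.1, 353.2 and 301.8 CPM in YC, 271.0, 299.9 and 347.9 CPM in BIC, and 152.7 to 446.8 CPM in pBIC with a median of 248.2 CPM. The highest level of all 12 libraries was in pBIC 6 and the lowest in pBIC 3. The log2 fold changes were -0.26 ± 0.33 from YC to BIC (adjusted p = 0.672), -0.49 ± 0.28 from YC to pBIC (0.232) and -0.24 ± 0.29 from BIC to pBIC (0.597). Without pBIC 6 the second was -0.71 and passed (adjusted p = 0.0387; range over the alternatives 0.0387 to 0.584).

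Counted over the 9 genes, 1 was called in BIC against YC and it was lower, where 8.88% of all genes tested were called, 3.90% higher and 4.97% lower. The BIC and YC libraries did not overlap for 6 of the 9, beside 45.2% of all genes. In pBIC against YC, 5 of 9 were called, all lower, where 22.0% of all genes were called, 11.8% higher and 10.2% lower. Here 6 of the 9 had no overlap between groups, beside 26.1% of all genes. In pBIC against BIC, 3 of 9 were called, all lower, where 19.7% of all genes were called, 10.9% higher and 8.78% lower, and 4 of the 9 did not overlap, beside 21.6%. The median log2 fold changes of the 9 genes were -0.26, -0.73 and -0.65 in these comparisons, beside 0.007, 0.104 and 0.090 over all genes tested. All 9 had a log2 fold change below 0 in pBIC against each of the other groups, and 6 of 9 did in BIC against YC. Comparisons that share a group are not independent of each other. The count of called genes in BIC against YC was 0 without any 1 of the YC or BIC libraries or without pBIC 2, and 2 without pBIC 4, and the count in pBIC against YC was 2 without YC 2 and 3 without YC 3.

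**Figure D2:**
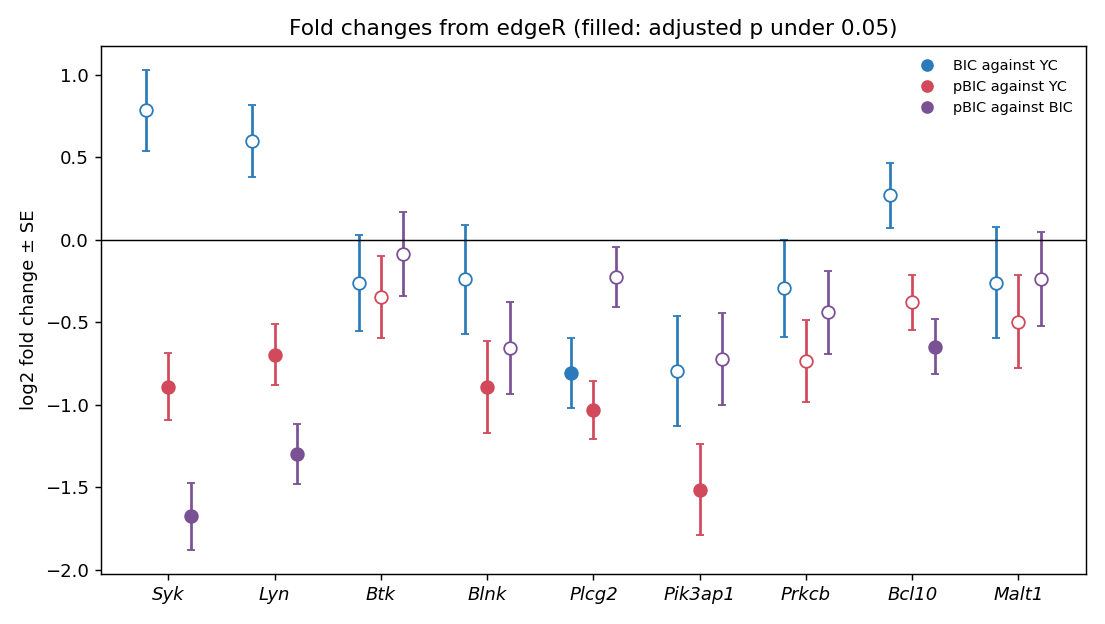
Log2 fold change with its SE (vertical axis) of each of the 9 genes, from edgeR, for BIC set against YC and for pBIC set against YC or BIC; filled points have an adjusted p under 0.05. Syk and Lyn lie above 0 in BIC against YC with open points and below 0 in both pBIC comparisons with filled points.

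Compared per length, which allows genes to be set beside each other, the order of the 9 genes changed at its top. In YC, Plcg2 led at 158 ± 13.7 RPKM (CPM divided by the length of the exons in kilobases; SD, n = 3), before Syk at 132 ± 7.07 and Pik3ap1 at 122.3 ± 12.04. Syk and Pik3ap1 differed by less than the SD of Pik3ap1. Lyn (74.9 ± 10.2), Malt1 (72.2 ± 14.2), Btk (66.3 ± 13.5) and Blnk (66.2 ± 2.55) followed and did not differ beyond their spread, and Prkcb (44.7 ± 1.13) and Bcl10 (20.6 ± 1.79) were last. In BIC, Syk led at 227 ± 35.7 RPKM and Lyn came next at 114 ± 6.44, before Plcg2 at 90.0 ± 5.83 and Pik3ap1 at 70.6 ± 7.57. In pBIC the levels were closer together, with Plcg2 at 77.11 ± 16.01 RPKM, Syk at 71.3 ± 18.6, Btk at 52.2 ± 16.2, Malt1 at 51.3 ± 20.5 and Lyn at 46.3 ± 9.95 (n = 6), each within 1 SD of its neighbour except Syk and Btk. Pik3ap1 came sixth there at 42.8 ± 17.3 RPKM. Prkcb and Bcl10 stayed eighth and ninth in all groups, and the order was identical on the TPM scale.

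Ratios of levels within a library, which do not depend on scaling between libraries, show how the partners shifted. The level of Syk per length was 1.66 to 1.95 times that of Lyn in YC, 1.57 to 2.40 times in BIC and 1.04 to 2.13 times in pBIC, so the ranges overlap. Plcg2 stood at 2.27 to 2.55 times its adaptor Blnk in YC and at 1.51 to 1.77 times in BIC, without overlap, and at 1.47 to 3.73 times in pBIC. Malt1 stood at 2.93 to 3.89 times Bcl10 in YC, 2.09 to 2.94 times in BIC and 2.22 to 4.79 times in pBIC. These ratios were not tested.

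**Figure D3:**
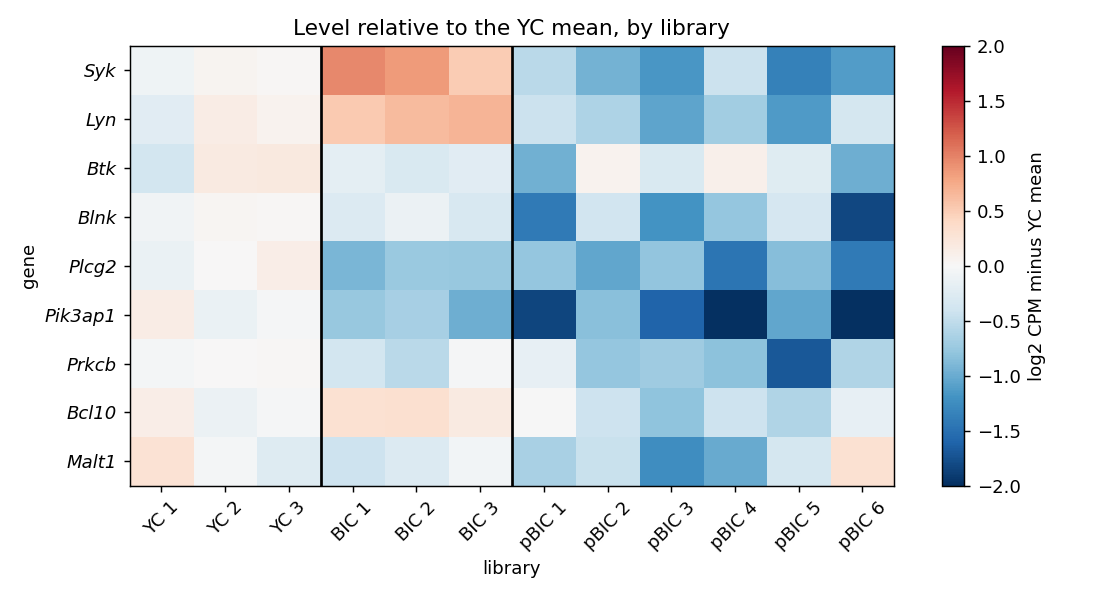
Log2 CPM of each of the 9 genes (rows) in each library (columns) minus the YC mean of that gene; red is above and blue below the YC mean, on a scale from -2 to 2. Syk, Lyn and Bcl10 are red in all BIC libraries, and Plcg2 and Pik3ap1 are blue in all BIC and pBIC libraries.

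The pBIC libraries differed among themselves in which gene was low. pBIC 1 was the highest of the 6 for 3 of the 9 genes and the lowest for none, and pBIC 5 was the lowest for 3, namely Syk, Lyn and Prkcb, and the highest for 1, Blnk. pBIC 6 was the highest for Malt1 and Lyn and the lowest for Blnk and Btk. This spread is general: the median SD of log2 CPM over all genes was 0.594 in pBIC, 0.267 in YC and 0.336 in BIC.

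Because B cell markers were lower in pBIC, each gene was also set beside the sum of the 8 markers in the same library, a description chosen after the data were seen and not tested. In these units (CPM per 1000 CPM of markers) Syk ranged from 120 to 131 in YC, 181 to 262 in BIC and 112 to 207 in pBIC. Syk was thus above YC in all BIC libraries and overlapped with YC in pBIC. Lyn had medians of 30.5 in YC, 49.1 in BIC and 44.6 in pBIC, where it ranged from 29.9 to 54.3. Plcg2 ranged from 65.2 to 70.2 in YC, 39.2 to 42.1 in BIC and 49.5 to 147 in pBIC, and Pik3ap1 from 28.1 to 39.8, from 16.8 to 21.1 and from 11.9 to 60.9. On this scale none of the 9 genes lay below YC in all pBIC libraries: 7 overlapped with YC, and Prkcb (40.5 to 53.7 against 33.2 to 37.3) and Bcl10 (12.5 to 24.4 against 8.36 to 11.6) lay above it. In BIC, Syk and Lyn lay above YC, Blnk, Plcg2 and Pik3ap1 lay below it, and the other 4 overlapped. Between pBIC and BIC, 7 of the 9 overlapped on this scale, among them Syk, Lyn and Bcl10, the 3 genes called lower by CPM, and Plcg2 and Prkcb lay higher in pBIC. The markers themselves include receptor chains and coreceptors of the same pathway, such as Cd79a, Cd79b, Cd22 and Ptprc. Their part in the lower CPM of the 9 genes in pBIC was not tested.

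**Figure D4:**
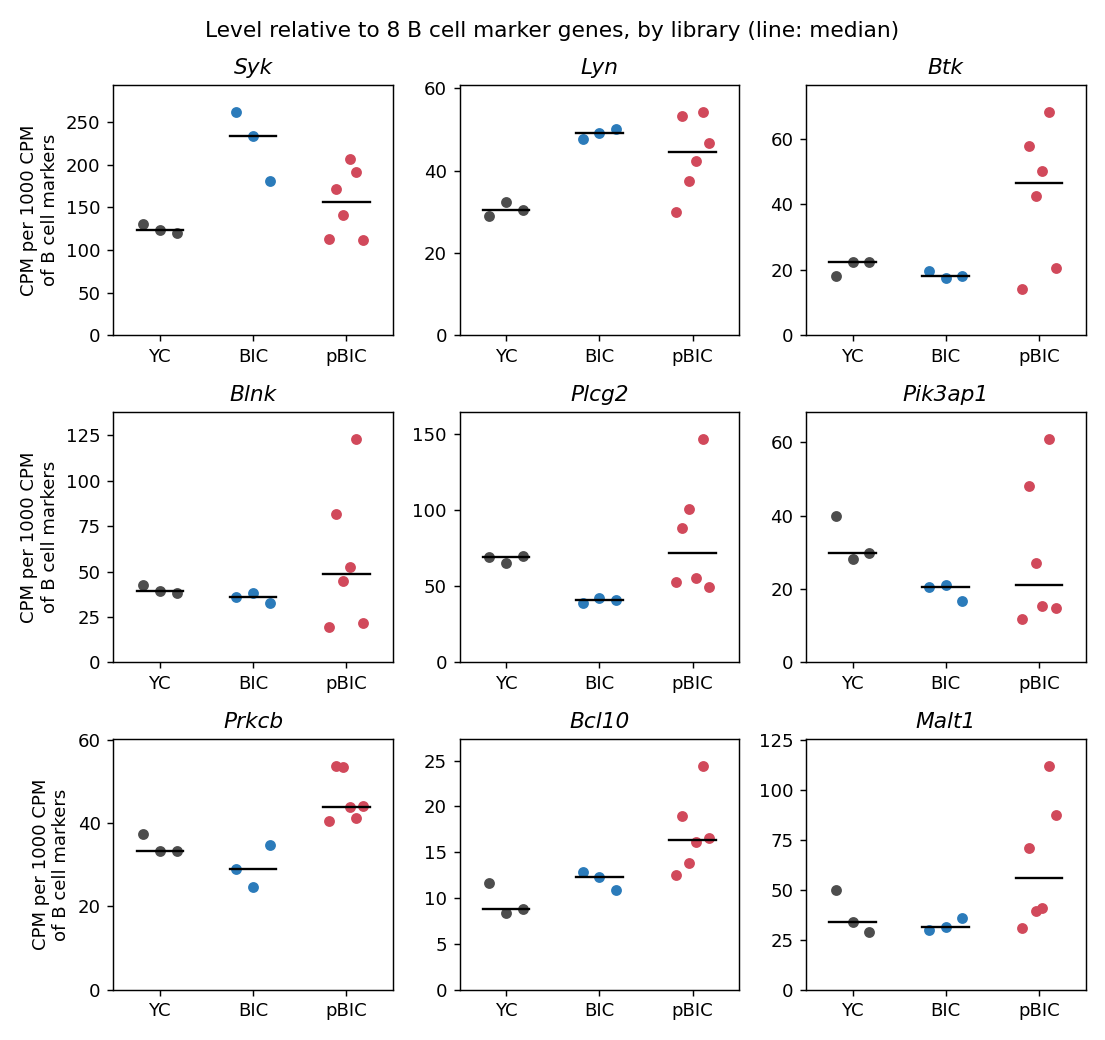
Level of each of the 9 genes in CPM per 1000 CPM of the summed 8 B cell markers (vertical axis, starting at 0) in each library of YC, BIC and pBIC; points are libraries and bars are medians. The pBIC points overlap with YC for 7 genes and lie above it for Prkcb and Bcl10.

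The genes around the 9 in the pathway were taken as 9 lists of 148 genes, of which 147 were tested. In pBIC against YC, 37 were lower and 3 higher (27.2% called, beside 22.0% of all genes), with a median log2 fold change of -0.37. In pBIC against BIC, 36 were lower and 5 higher (27.9%, beside 19.7%), with a median of -0.41. In BIC against YC, 9 were higher and 6 lower (10.2%, beside 8.88%), with a median of -0.12. The counts of single lists below are to be read beside the shares of all genes called. These were 10.2% lower and 11.8% higher in pBIC against YC, and 8.78% lower and 10.9% higher in pBIC against BIC. In BIC against YC they were 4.97% lower and 3.90% higher. Leaving out YC 2, YC 3, BIC 1 or BIC 2 lowered the 15 calls of BIC against YC to between 7 and 9, leaving out YC 2 or YC 3 lowered the 40 of pBIC against YC to 22 or 24, and leaving out BIC 1, BIC 2 or BIC 3 lowered the 41 of pBIC against BIC to 18, 20 or 25.

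Upstream of the kinases, 2 of 6 receptor and coreceptor genes were lower in pBIC than in YC and 3 were lower than in BIC. The phosphatase CD45, encoded by Ptprc, which keeps Src-family kinases ready to act, fell from 1856 ± 188.7 CPM in YC (n = 3) to 552.0 ± 127.6 CPM in pBIC (n = 6; log2 fold change -1.75, adjusted p = 0.000190 by edgeR). The complement receptor Cr2 fell from 565.1 ± 96.79 to 22.16 ± 18.1 CPM (log2 fold change -4.67, adjusted p = 0.0110), a call that ended with DESeq2 and with the Xist term. Cd79b, a signalling chain of the receptor, fell from 1268 ± 120.7 CPM in BIC to 552.4 ± 268.8 CPM in pBIC (log2 fold change -1.20, adjusted p = 0.0192), a call that ended without BIC 1, without BIC 2, and with libraries 1 to 3 alone, with or without the replicate block (up to 0.103).

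Among the other Src-family and Tec-family kinases and their regulators, 5 of 10 were lower in pBIC than in YC, and 4 were lower and 1 higher than in BIC. Blk, a Src-family kinase of B cells, fell from 839.7 ± 62.72 CPM in BIC to 378.0 ± 132.0 CPM in pBIC (log2 fold change -1.15, adjusted p = 0.00850), beside the falls of Lyn and Syk in the same comparison. Fgr, a myeloid Src-family kinase, fell in pBIC against both YC (log2 fold change -1.27, a call that ended with the Xist term at 0.0528) and BIC (-1.66). Pag1, a membrane adaptor that recruits the kinase Csk to restrain Src-family kinases, was lower than in YC in BIC (log2 fold change -2.44 ± 0.63) and in pBIC (-2.63 ± 0.50), and the BIC call ended without any 1 of the YC or BIC libraries, with no filter on low counts and with the Xist term (up to 0.131). Yes1 was near the detection floor in BIC at 0.1344 ± 0.1363 CPM, against 4.52 ± 1.268 CPM in YC and 7.147 ± 4.489 CPM in pBIC, and was called in both comparisons with BIC; its call against YC ended without BIC 1 (0.0592).

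Of 17 adaptors and Vav exchange factors, 7 were lower in pBIC than in YC, 5 were lower than in BIC, and none was called in BIC against YC. Bank1, a B cell scaffold that binds Lyn and Plcg2, fell from 486.4 ± 32.49 CPM in YC and 476.2 ± 75.56 CPM in BIC to 182.1 ± 43.21 CPM in pBIC (log2 fold changes -1.42 and -1.39, adjusted p = 0.000659 and 0.00124). Sh3kbp1, an adaptor in receptor internalisation, fell from 239.7 ± 16.59 CPM in YC to 75.0 ± 28.81 CPM in pBIC. Themis2, an adaptor that binds Plcg2, fell from 328.8 ± 43.49 CPM in BIC to 117.3 ± 34.57 CPM in pBIC. These calls held in all 20 alternatives.

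In the phosphoinositide 3-kinase arm, where Pik3ap1 acts, 2 of 14 genes were lower in pBIC than in YC (beside 10.2% of all genes) and none was called in the other comparisons. They were Pik3cg (log2 fold change -1.18 ± 0.30) and the transcription factor Foxo1 (-2.15 ± 0.56), and both calls ended without YC 2, that of Pik3cg also without YC 3 and that of Foxo1 also with no filter on low counts (up to 0.0885 and 0.0617). In the calcium, PKC and NFAT arm, below Plcg2, 4 of 24 were lower in pBIC than in YC and 7 lower than in BIC. Nfatc2, a calcium-dependent transcription factor, fell from 76.09 ± 7.25 CPM in YC and 49.18 ± 1.96 CPM in BIC to 17.04 ± 4.222 CPM in pBIC (log2 fold changes -2.16 and -1.53, adjusted p = 9.12e-05 and 0.00105). The calcineurin subunits Ppp3cc (log2 fold change -1.28 against YC) and Ppp3r1 (-0.65 against BIC) were also lower in pBIC. In the RAS and MAP kinase arm, 2 of 19 were lower in pBIC than in YC, close to the 10.2% of all genes. Rasgrp3, the exchange factor that answers to the Plcg2 product, was at 384.4 ± 21.91 CPM in YC and 58.15 ± 48.72 CPM in pBIC (adjusted p = 0.0173, a call that ended without YC 2 or YC 3 and with no filter on low counts, up to 0.0648). Against BIC, 2 of the 19 were lower and 1 was higher. The higher gene was Mapk8 (log2 fold change 0.85 ± 0.22), whose call ended with the replicate block and without any 1 of the BIC libraries (up to 0.0960).

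Of 20 CBM partners and ubiquitin genes, 4 were lower and 1 higher in pBIC than in YC, 2 lower and 2 higher than in BIC, and 1 lower in BIC than in YC, with medians of -0.11, -0.21 and -0.07. Traf6, the ubiquitin ligase that Malt1 recruits, fell from 86.56 ± 9.225 CPM in YC to 45.18 ± 1.498 CPM in BIC (log2 fold change -0.94, adjusted p = 0.00703) and to 57.32 ± 8.339 CPM in pBIC (-0.59, adjusted p = 0.0117, which ended without YC 1 at 0.0686). Cflar, the long form of which pairs with caspase 8, fell from 106.6 ± 11.22 CPM in YC to 38.61 ± 12.62 CPM in pBIC (log2 fold change -1.46). Tab1, a partner of the kinase TAK1, was higher in pBIC than in YC (log2 fold change 0.75 ± 0.24) and than in BIC (0.83 ± 0.24), and both calls ended in several alternatives (adjusted p up to 0.165 and 0.152). Rbck1, a subunit of the linear ubiquitin ligase, was higher in pBIC than in BIC (0.46 ± 0.13, up to 0.156). The Tab1 call against YC ended without any 1 of the YC libraries, BIC 1, BIC 2, pBIC 1, pBIC 3 or pBIC 4, and the Rbck1 call without YC 2, YC 3, any 1 of the BIC libraries, pBIC 2 or pBIC 3. In a list of 10 genes taken as MALT1 substrates, the clearest was Map3k14, which encodes NIK, the kinase of the alternative NF-kB pathway. Cleavage by Malt1 was not measured here for any gene of the list. Map3k14 was at 94.18 ± 3.668 CPM in YC, falling to 47.11 ± 2.66 in BIC and 28.46 ± 1.666 in pBIC. All 3 comparisons of Map3k14 were called (adjusted p = 0.00230 for BIC and 1.27e-05 for pBIC when set beside YC, and 0.00198 between the models), with log2 fold changes of -1.73 from YC to pBIC and -0.73 from BIC to pBIC, and each call held in every alternative.

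Inhibitory receptors and phosphatases were the only one of the 9 lists with more than 1 gene called higher in BIC against YC, with 8 of 28 higher and 2 lower. Ptpn22, a phosphatase that acts on Src-family kinases, rose from 75.33 ± 10.33 CPM in YC to 571.0 ± 104.1 CPM in BIC (log2 fold change 2.92 ± 0.42, adjusted p = 0.00294) and stood at 217.5 ± 96.77 CPM in pBIC (1.53 ± 0.36 against YC, a call that ended without YC 2 or YC 3, up to 0.0568). Ptprj, a receptor phosphatase that works beside CD45, rose from 135.1 ± 16.31 to 403.4 ± 70.53 CPM (log2 fold change 1.58 ± 0.25, adjusted p = 0.00416) and fell again to 169.7 ± 40.51 CPM in pBIC (-1.25 ± 0.20 against BIC, adjusted p = 0.00242). Dok2, an adaptor that restrains RAS, fell from 15.52 ± 3.97 CPM in YC to 1.949 ± 0.2687 CPM in BIC and 1.707 ± 0.8083 CPM in pBIC. In pBIC, 9 of the 28 were lower and 2 higher than in YC, and 12 were lower and 1 higher than in BIC. They include Cd22, the sialic acid receptor on B cells that Lyn phosphorylates (563.5 ± 164.5 CPM in pBIC against 1457 ± 55.57 CPM in YC, log2 fold change -1.37), and Pirb (34.16 ± 18.94 CPM against 129.4 ± 34.69 CPM in BIC), which myeloid cells also express and whose call ended in the fit with the replicate block (0.0572). Of the genes called higher in pBIC, Lair1, a collagen receptor, rose from 2.596 ± 0.717 CPM in YC to 16.61 ± 8.367 CPM in pBIC (log2 fold change 2.67, adjusted p = 0.00312). Leaving out YC 1, YC 2, YC 3, BIC 1 or BIC 2 lowered the 10 calls of BIC against YC to between 4 and 6, leaving out YC 2 or YC 3 lowered the 11 of pBIC against YC to 7, and leaving out BIC 1 or BIC 2 lowered the 13 of pBIC against BIC to 4 or 6.

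**Figure D5:**
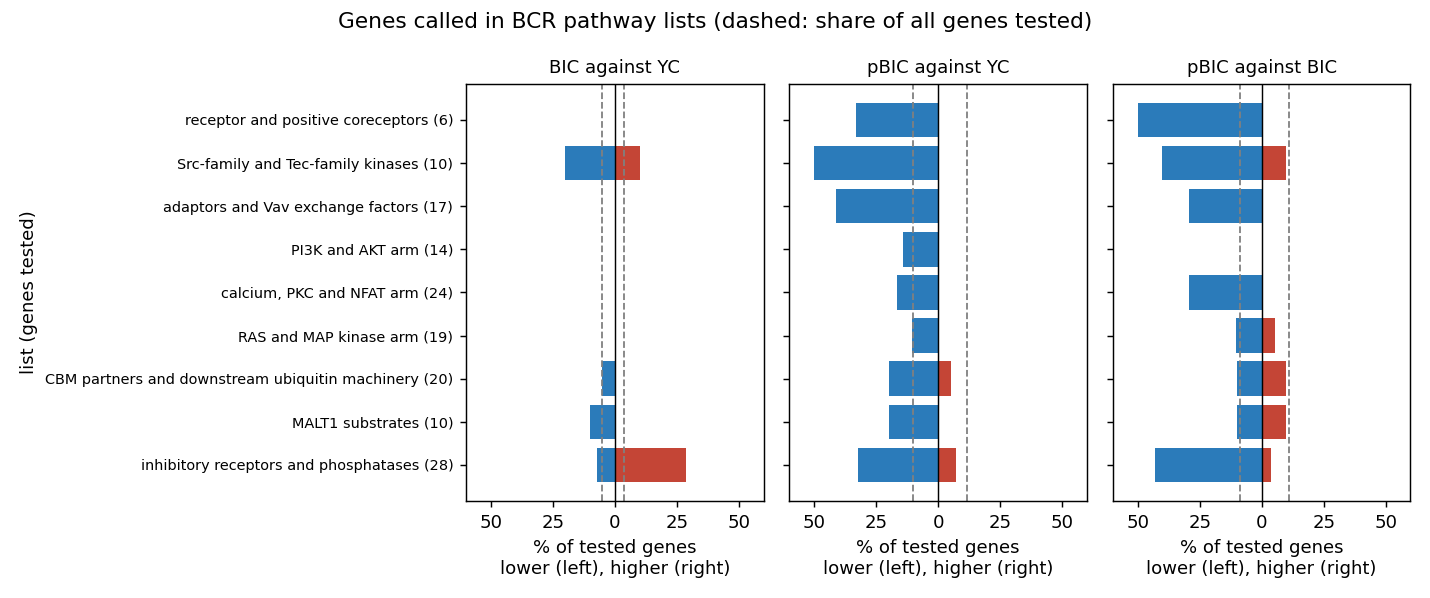
Share of tested genes called lower (blue, to the left of 0) and higher (red, to the right), in percent, in 9 lists of B cell receptor pathway genes, with 1 panel for each of the 3 comparisons; the numbers in parentheses are the genes tested and the dashed lines are the shares of all 17754 genes. The inhibitory list has 8 of 28 genes higher in BIC against YC, and the pBIC panels are mostly blue.

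Likeness of pattern was measured over the 12 libraries as the root mean square difference between log2 CPM values after subtraction of each gene's own mean, among 9623 protein-coding genes. Within the 9 genes, Syk and Lyn were the closest pair at 0.302, against root mean squares of 0.756 and 0.598 around their own means. Outside them, the closest genes were Ccdc186 (0.219) and Ssh3 (0.221) for Syk, and Rbl2 (0.193) and Rab5b (0.200) for Lyn. Cd48 (0.140) was closest to Blnk, Slc45a4 (0.179) to Plcg2, Mical1 (0.264) to Pik3ap1 and Baz2b (0.171) to Prkcb. Agpat1 (0.126) was closest to Bcl10, Slc2a1 (0.177) to Malt1 and Add1 (0.147) to Btk, genes that themselves varied least, with 0.345, 0.445 and 0.371 around their means. The libraries share groups and scaling, so these values are a description.

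The genes lie on 8 chromosomes of GRCm38: Syk (ENSMUSG00000021457.14) at chr13:52583173-52648792, Lyn (ENSMUSG00000042228.14) at chr4:3678115-3813122, Btk (ENSMUSG00000031264.13) at chrX:134542336-134583570, Blnk (ENSMUSG00000061132.13) at chr19:40928927-40994535 and Plcg2 (ENSMUSG00000034330.10) at chr8:117498291-117635142. Pik3ap1 (ENSMUSG00000025017.9) lies at chr19:41274218-41385070, Prkcb (ENSMUSG00000052889.11) at chr7:122288751-122634402, Bcl10 (ENSMUSG00000028191.11) at chr3:145922804-145934356 and Malt1 (ENSMUSG00000032688.7) at chr18:65430963-65478823. Reads were counted over all exons of a gene, UTRs included, without strand. The annotated genes that overlap with these 9 held at most 130 counts in any library.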

How the data were processed

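Libraries of poly(A) RNA, 1 for each of 12 mice, were read as pairs of 100 bases. The deposited tables hold raw counts per gene, made by the authors with featureCounts 1.5.0, per the file headers: GENCODE exons on GRCm38, unstranded, with mates counted separately. STAR, edgeR and limma are also named in the submitters' processing notes, with no version. Symbols were matched to 50462 of 50686 gene IDs, and IDs without a symbol held at most 0.0174% of counts. A mate pair can give 2 counts, so counts are not independent fragments.

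Groups were taken from the sample titles. Genes were kept by filterByExpr (minimum count 10) and fitted with edgeR 4.0.16 (R 4.3.3), TMM scaling, a robust quasi-likelihood model over all 12 libraries and Benjamini-Hochberg adjustment over 17754 genes; called means an adjusted p under 0.05. SE is the log2 fold change divided by the root of F. The pipeline was tested on simulated data. The 9 genes and all lists were chosen with earlier results of these data known. Text names all 9 genes and, per list, comparison and direction, up to 2 called genes in order of p. Alternatives were DESeq2 1.42.0, other scaling, no filter, 2 groups only, a term for Xist, a replicate block and leaving out each library. The Xist term cannot part sex from group between YC and BIC, whose Xist levels lie fully apart. What the replicate numbers mark is not given in the sources used here, and p-values measure the spread between these libraries. Some genes are not reported here.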

Additional observations from a re-analysis of the deposited data

Results flagged for a closer look

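The pBIC effect and the BIC effect against YC differed for 3 of the 9 genes by a test of the difference itself, which is the comparison of pBIC with BIC. In that comparison 19.7% of all genes tested were called, and the libraries did not overlap for 21.6%. Between BIC and YC the libraries did not overlap for 45.2% of all genes, and between pBIC and YC for 26.1%. For Syk, the kinase at the receptor, the difference was -1.67 on the log2 scale, with 3 of 3 BIC libraries above and 6 of 6 pBIC libraries below all YC libraries. For Lyn it was -1.30, with the same placement of the libraries. For Bcl10, the linker of the CBM complex, it was -0.65, with 3 of 3 BIC libraries above all YC libraries and the pBIC libraries overlapping with YC. No pBIC library stood apart from the other 5 for any of the 9 genes by Dixon's criterion; the widest gap was that of Malt1 in pBIC 6, 0.553 of the range, below the critical value of 0.625. YC and BIC, with 3 libraries each, were not screened in this way.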

How the results depend on the processing

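Syk and Lyn in pBIC against BIC, and Plcg2 and Pik3ap1 in pBIC against YC, kept their direction and their call in all 20 alternatives. The counts of called members and genes in pBIC against YC and in pBIC against BIC stayed within 1.5 times under every alternative that kept all libraries. In BIC against YC, genes called were 1576 of 17754, and 1019 of 17754 with the Xist term. Other fits held other numbers of genes: 2826 of 33434 were called with DESeq2 and 4602 of 15923 with only the 2 groups in the fit. Of the 9 genes, 1 was called in the main fit. The count was 2 with DESeq2, 0 with no filter on low counts, 4 with the 2 groups alone and 2 with the Xist term. Leaving out 1 library gave 563 to 1867 genes in BIC against YC, 1904 to 4376 in pBIC against YC and 1422 to 4134 in pBIC against BIC, and 0 to 2, 2 to 6 and 2 to 4 of the 9 genes. Directions that turned were all of values that passed no test: with the Xist term, Prkcb at 0.22 and Malt1 at 0.06 in BIC against YC and Btk at 0.23 in pBIC against BIC, and Btk at 0.01 in the last comparison without pBIC 1 (-0.20 to 0.01 when any 1 library was left out). The cause was not tested in any of these. A fit of libraries 1 to 3 of each group with the replicate number as a block called 1783, 3172 and 2494 genes and 2, 4 and 3 of the 9 genes; without the block the same libraries called 2 in BIC against YC, a fit added after the data were seen. Libraries with the same number did not deviate together (r of 0.018, -0.095 and 0.072 between BIC and YC), so the numbers were not taken to pair the mice. The median log2 fold change of all genes in pBIC against YC was 0.104, and 0.163 with DESeq2, 0.075 with RLE factors and 0.087 with total counts only. Of the pathway genes that the naming rule takes, 5 of 9 in BIC against YC, 12 of 21 in pBIC against YC and 11 of 20 in pBIC against BIC kept their call in every alternative. With at least 1946 counts of each of the 9 genes in every library, counting error is small for them.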
